A study of Mus musculus with 12 samples.

Results

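Messenger RNA was measured in 4 cell populations sorted from the aorta and the perivascular adipose tissue of mouse pups, and the progenitor and smooth muscle populations together were set against the intermediate and preadipocyte populations together. All 12 libraries of the series entered the comparison, 3 from each population, so each side held 6 libraries, and the 4 populations were weighted equally. The pups were wild-type CD-1 mice of 3 days of age (P3), males and females mixed, with no treatment named in the labels, and the cells were released with collagenase D and dispase II and separated by flow cytometry. The labels do not name the surface markers of the gates, so the sort itself may have selected on a surface protein described here. The labels do not say whether the 3 libraries of a population came from separate litters or sorts, so the p-values measure the spread between these libraries, which may be technical. Of 36512 genes in the table, 21285 had enough counts to be tested. A gene was called when edgeR's quasi-likelihood test gave a Benjamini-Hochberg adjusted p under 0.05 for the difference between the sides. It was ordered when it was called and both populations of one side had a higher mean log2 CPM (counts scaled to a common library size) than both of the other, which held for 2043 genes. It was separated when, in addition, each of the 4 comparisons of a population of one side with one of the other passed the same threshold in the same direction. This held for 258 genes.

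Perivascular adipose tissue surrounds large arteries, and around the thoracic aorta of mice it is rich in thermogenic adipocytes. In several fat depots, fibroblast-like progenitors that carry Dpp4 and Pi16 lie in the connective tissue sheets and give rise to committed preadipocytes, which switch on the adipocyte regulator Pparg. Vascular smooth muscle cells form the contractile layer of the artery and are known by Acta2 and Myh11. The study asks from which lineage the thermogenic perivascular adipocytes arise. The labels state no separate question for the pairing of progenitor with smooth muscle, so the genes below describe what these populations of the deposited data had in common against the others.

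The libraries held between 11701825 and 17123109 counts each. The labels were checked on 5 markers per cell type: by mean, the 5 smooth muscle markers were highest in the smooth muscle libraries, the 5 progenitor markers in the progenitor libraries and the 5 preadipocyte markers in the preadipocyte libraries. The smooth muscle libraries also stood apart in markers of other cells. On library size alone, the summed level of 12 mesothelial markers was 1831 to 2405 CPM in smooth muscle, 109 to 236 CPM in progenitor, 29.5 to 93.2 CPM in intermediate and 33.1 to 95.0 CPM in preadipocyte libraries. The sum of 15 Schwann and neuronal markers was 1186 to 1561 CPM in smooth muscle libraries and at most 225 CPM in any other library. Receptor genes of the olfactory and vomeronasal families, known mainly from sensory neurons of the nose, summed to 712 to 1034 CPM in smooth muscle libraries and to at most 316 CPM elsewhere. Red blood cell genes summed to 1411 to 21159 CPM in the preadipocyte libraries and to at most 281 CPM elsewhere. The part of these cells in the results below was not tested beyond the values given with them. For the receptor genes, an alternative subtracted an even background taken from their counts, and its values are given at the end. In bulk libraries, fewer cells of a type and less RNA per cell cannot be told apart.

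**Figure D1:**
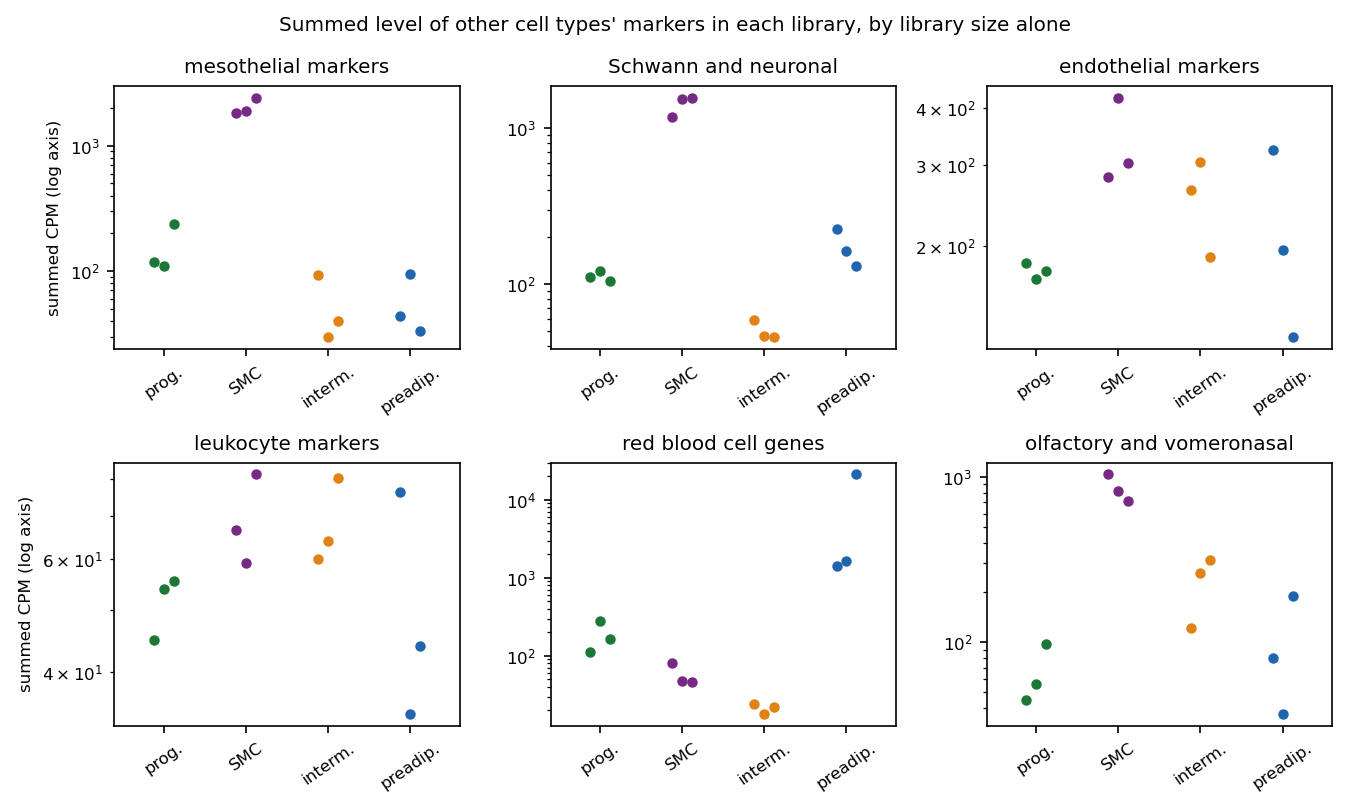
Summed level of the markers of other cell types in each library (CPM by library size alone, log axis), for the progenitor (prog.), smooth muscle (SMC), intermediate (interm.) and preadipocyte (preadip.) populations, 1 point per library. The mesothelial, Schwann and neuronal, and olfactory and vomeronasal sums are highest in the 3 smooth muscle libraries, and the red blood cell sum is highest in the 3 preadipocyte libraries.

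The comparison called 4183 genes higher in progenitor and smooth muscle (19.7% of the genes tested) and 3441 genes lower (16.2%). The median log2 difference over all genes tested was 0.07. Of the genes called higher, 1361 were ordered (6.39% of the genes tested), and of those called lower, 682 were ordered (3.2%). Most called genes did not follow the pairing: among the 2822 genes called higher but not ordered, the preadipocyte population was the lowest in 2245, and among the 2759 genes called lower but not ordered it was the highest in 2544. The pairing was an uncommon order of the populations. Progenitor and smooth muscle were the 2 highest populations in 9.55% of the genes tested, and intermediate and preadipocyte were the 2 highest in 5.42%. Each of the other 4 pairs was highest more often, from 14.6% for preadipocyte with smooth muscle to 30.2% for intermediate with smooth muscle. Restricting the test to protein-coding genes, an alternative added after the data were seen, moved the median log2 difference to -0.08 and the share of calls that were higher from 54.9% to 39.3%, and testing all genes without a filter on low counts moved it to 44.2%.

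The separated genes were 237 higher (1.11% of the genes tested) and 21 lower (0.0987%). Progenitor was called higher than intermediate in 13.4% of the genes tested and lower in 14.1%, and higher than preadipocyte in 25.9% and lower in 25.1%. Smooth muscle was called higher than intermediate in 15.7% and lower in 13.1%, and higher than preadipocyte in 40.7% and lower in 25.9%. Between the populations of a side, progenitor was called higher than smooth muscle in 23.6% and lower in 30.5%, and intermediate higher than preadipocyte in 31.1% and lower in 26%. The separated higher genes were protein-coding in 226 cases (95.4%, against 75.7% of all genes tested), and their median log2 difference was 1.88. In 230 of the 237, every progenitor and smooth muscle library lay above every intermediate and preadipocyte library. This order of libraries was found in 1.94% of the genes tested, called or not. Progenitor and smooth muscle were not called different from each other in 116 of the 237 genes, smooth muscle was higher in 81 and progenitor was higher in 40. The smallest of the 4 fold differences was at least 2 in 119 genes, at least 4 in 27 and at least 8 in 4. Of the 21 separated lower genes, 20 were protein-coding (95.2%), so this share was alike in both directions. The 21 genes had a median log2 difference of -1.06, all 21 had their 6 libraries below the other 6 (0.564% of the genes tested), and the smallest fold difference was at least 2 in 2 of them.

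**Figure D2:**
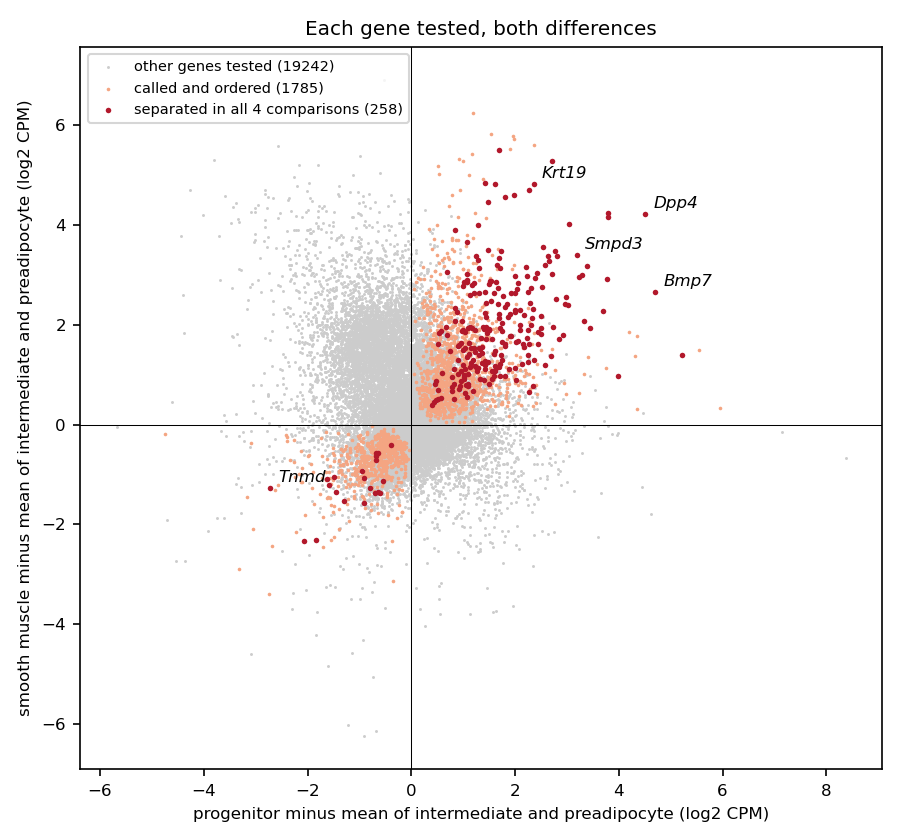
Each gene tested, with the progenitor level minus the mean of the intermediate and preadipocyte levels on the x axis and the smooth muscle level minus the same mean on the y axis (both log2 CPM). Grey points are the other genes, orange points the genes called and ordered but not separated, and red points the 258 separated genes; Dpp4, Smpd3 and Bmp7 lie high on both axes or on the progenitor axis, Krt19 lies higher on the smooth muscle axis, and Tnmd lies low on both.

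The gene with the widest separation was Dpp4, a cell-surface dipeptidyl peptidase that marks interstitial progenitors in fat (ENSMUSG00000035000, GRCm38 chromosome 2, 62330073 to 62412231). Dpp4 was measured at 87.8, 93.3 and 98.5 CPM in progenitor and 71.9, 86.6 and 71.3 CPM in smooth muscle libraries. Dpp4 was at 5.7, 3.31 and 3.72 CPM in intermediate and 2.59, 5.68 and 3.73 CPM in preadipocyte libraries. Its 6 libraries on the progenitor and smooth muscle side did not overlap the other 6, which was a condition for ranking genes by their separation. Progenitor and smooth muscle were not called different from each other for Dpp4. The difference between the sides was 4.36 ± 0.18 on the log2 scale (SE; edgeR's quasi-likelihood test, adjusted p = 8.06e-10), a 20.6-fold higher level. An exon of Dpp4 overlaps the annotated gene Gm13561, and the labels do not say whether reads were counted by strand, so reads could be shared between them. The same holds for Anxa3, Cd9, Cherp, Creb5, Dio2, Eln, Gbp2, Igf2bp3, Pdgfra, Pi16, Rarres2 and Tapbp below, and for the genes whose partner is named beside them. The promoter of Dpp4 is shown because it holds the letters of an interferon-stimulated response element (ISRE), the site bound by the interferon-activated factor complex, 52 bases before the start (chr2:62412182-62412481, minus strand; capitals mark GAAA, any 2 bases and GAAA, read on the other strand; RefSeq, GRCm38.p6). The ISRE was searched for after the values were seen, and the promoters of Igfbp6, Efemp1, Ptgs1 and Tlr2, described below, held none. A link of Dpp4 to interferon was not tested.
Dpp4: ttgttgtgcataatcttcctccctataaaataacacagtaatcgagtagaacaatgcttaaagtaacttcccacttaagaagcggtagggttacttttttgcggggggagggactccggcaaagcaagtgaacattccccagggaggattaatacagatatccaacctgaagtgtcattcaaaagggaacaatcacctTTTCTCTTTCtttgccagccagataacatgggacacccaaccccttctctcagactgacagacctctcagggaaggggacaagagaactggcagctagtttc

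Among genes with a mean log2 CPM of at least 4, a lipid enzyme, a growth factor binding protein and a prostaglandin enzyme followed Dpp4. Smpd3, a neutral sphingomyelinase that releases ceramide from membrane lipid, was measured at 49.2, 51 and 58.3 CPM in progenitor and 59.2, 61.9 and 60.5 CPM in smooth muscle libraries. Smpd3 was at 7.58, 6.92 and 4.91 CPM in intermediate and 5.94, 7.19 and 2.9 CPM in preadipocyte libraries. Its exons overlap those of Prmt7. The lowest library of the progenitor and smooth muscle side was above the highest of the other side, and the log2 difference was 3.27 ± 0.18 (SE; edgeR's quasi-likelihood test, adjusted p = 5.39e-09). Igfbp6, a secreted binding protein that prefers the insulin-like growth factor Igf2, was measured at 176, 183 and 169.7 CPM in progenitor and 128, 124 and 195 CPM in smooth muscle libraries. Igfbp6 was at 22.6, 16.4 and 18.1 CPM in intermediate and 20.7, 20 and 15 CPM in preadipocyte libraries. Smooth muscle replicate 3 was the highest library for Igfbp6 and the intermediate and preadipocyte libraries lay close together, with a log2 difference between the sides of 3.11 ± 0.14 (SE; edgeR's quasi-likelihood test, adjusted p = 1.17e-09). Ptgs1, the constitutive cyclooxygenase of prostaglandin synthesis, was measured at 33.1, 31.1 and 32 CPM in progenitor and 23.6, 24 and 32.6 CPM in smooth muscle libraries. Ptgs1 was at 4.19, 3.01 and 2 CPM in intermediate and 3.56, 4.41 and 2.56 CPM in preadipocyte libraries. The groups did not overlap for Ptgs1, whose exons overlap those of Gm43621, and its log2 difference was 3.16 ± 0.18 (SE; edgeR's quasi-likelihood test, adjusted p = 7.33e-09). Efemp1, a fibulin of the extracellular matrix, was measured at 198, 190.1 and 264 CPM in progenitor and 188, 164 and 209 CPM in smooth muscle libraries. Efemp1 was at 22.5, 11.1 and 13.7 CPM in intermediate and 27.4, 29.7 and 25.6 CPM in preadipocyte libraries. It was 9.67-fold higher on the progenitor and smooth muscle side, and the preadipocyte libraries were above the intermediate libraries (log2 difference of intermediate minus preadipocyte -0.81 ± 0.21, SE; edgeR's quasi-likelihood test, adjusted p = 0.00458).

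A further 10 genes completed the widest gaps among well-expressed genes, where 6 libraries above the other 6 was again a condition of the choice. Tlr2, a receptor for bacterial lipopeptides, was at 26.8 ± 3.08 in progenitor, 41.9 ± 8.5 in smooth muscle, 4.19 ± 0.591 in intermediate and 4.72 ± 1.41 CPM in preadipocyte libraries (SD, n = 3 each). Serpinb1a, an inhibitor of neutrophil proteases, was at 28.2 ± 2.46 in progenitor, 38 ± 6.07 in smooth muscle, 5.19 ± 2.4 in intermediate and 6.63 ± 2.56 CPM in preadipocyte libraries. By mean, Tlr2 and Serpinb1a were lowest in the intermediate population and highest in smooth muscle. Gap43, a growth cone protein of neurons and Schwann cells, was at 94.3 ± 9.61 in progenitor, 159 ± 28.2 in smooth muscle, 9.63 ± 1.48 in intermediate and 24.3 ± 8.48 CPM in preadipocyte libraries. It is one of the 15 Schwann and neuronal markers whose sum was highest in smooth muscle libraries, and it was the 1 of the 15 that was separated. Sulf1, an extracellular sulfatase that trims heparan sulfate, was at 385 ± 27.7 in progenitor, 291 ± 23.8 in smooth muscle, 76.5 ± 15.7 in intermediate and 32.7 ± 11.2 CPM in preadipocyte libraries. Adgrd1, an adhesion G protein-coupled receptor, was at 236 ± 20.6 in progenitor, 131 ± 9.62 in smooth muscle, 40.3 ± 5.92 in intermediate and 7.8 ± 3.64 CPM in preadipocyte libraries. Adgrd1 was called higher in progenitor than in smooth muscle libraries and Sulf1 was not, and both were lowest in preadipocyte libraries. Clu, the extracellular chaperone clusterin, was at 73 ± 5.83 in progenitor, 142 ± 20.5 in smooth muscle, 11.9 ± 5.58 in intermediate and 22.4 ± 4.44 CPM in preadipocyte libraries. Mst1r, the receptor for macrophage-stimulating protein, was at 30.7 ± 3.26 in progenitor, 28.1 ± 2.59 in smooth muscle, 9 ± 1.68 in intermediate and 7.85 ± 3.3 CPM in preadipocyte libraries. Mst1r was the most even of the 10, with no call between progenitor and smooth muscle or between intermediate and preadipocyte. Oasl2, Igfbp5 and Krt19, the other members of the 10, are described with their groups below. These 15 genes were separated under each of the 21 alternatives run.

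**Figure D3:**
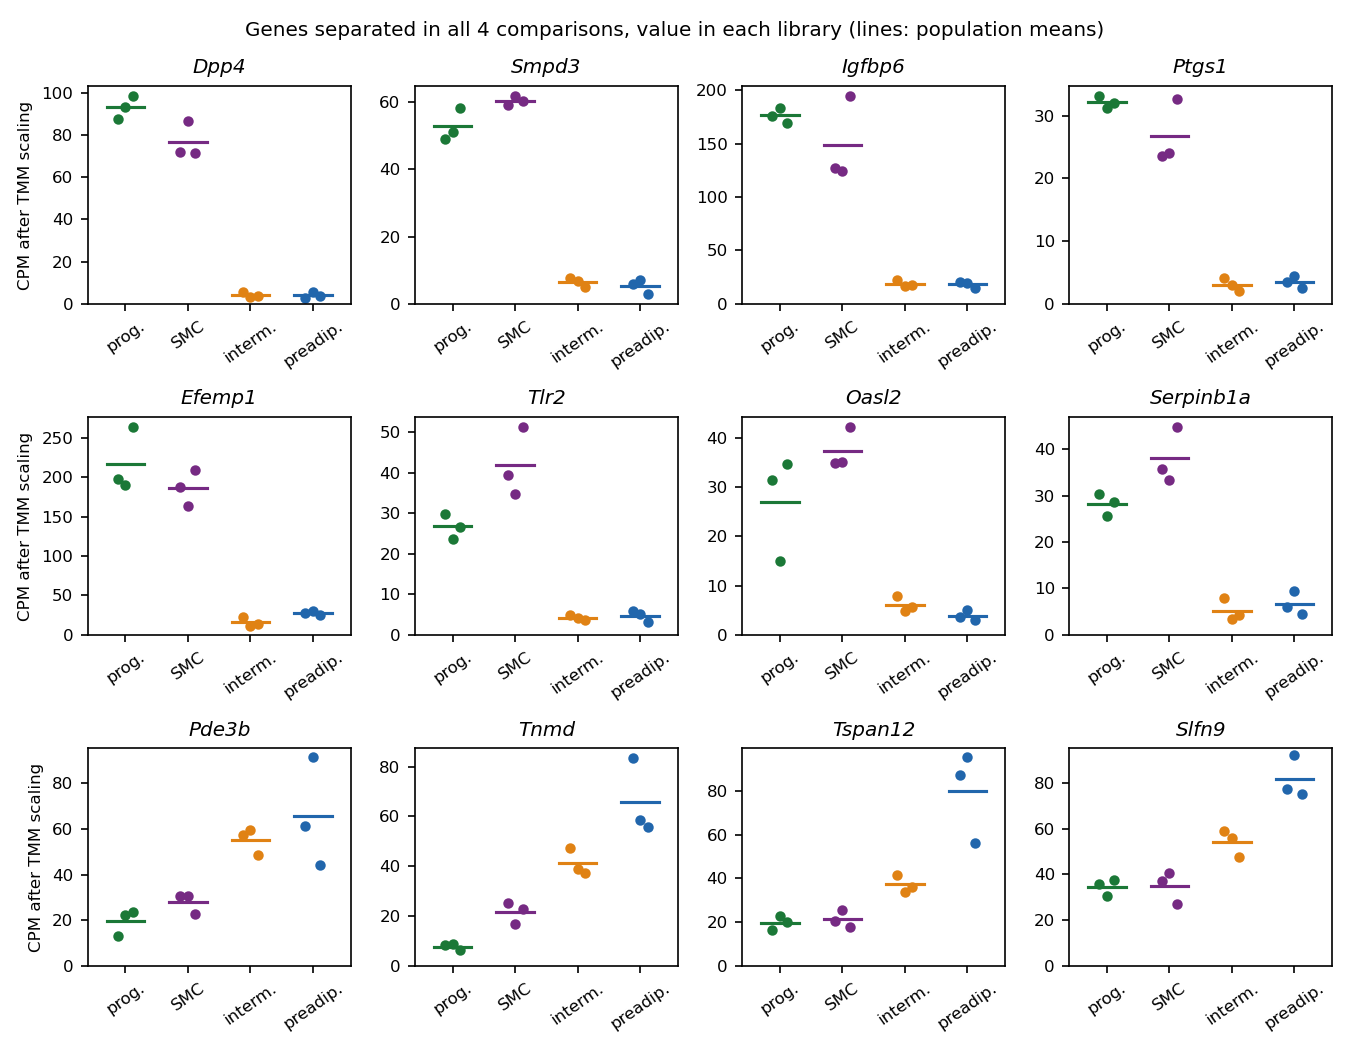
CPM after TMM scaling in each of the 12 libraries for 8 genes separated higher and 4 genes separated lower, with 1 point per library and lines at the population means. In the 8 higher genes every progenitor and smooth muscle point is above every intermediate and preadipocyte point, and in Pde3b, Tnmd, Tspan12 and Slfn9 every such point is below. This order of points was a condition for choosing the genes.

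Of 22 genes known from fat progenitors, 21 were called higher and 1 lower, 9 were ordered and 6 were separated, and the median log2 difference was 1.80 against 0.07 over all genes. These genes are known for 1 of the 4 populations, so their values in smooth muscle are given beside those in progenitor. Of all genes tested, 19.7% were called higher, 16.2% lower, 6.39% were ordered higher and 1.11% separated higher. Bmp7, a bone morphogenetic protein that promotes brown fat formation, was measured at 28.6, 26.2 and 27.1 CPM in progenitor and 6.89, 6.04 and 6.71 CPM in smooth muscle libraries. Bmp7 was at 1.16, 0.601 and 0.454 CPM in intermediate and 1.03, 1.57 and 1.11 CPM in preadipocyte libraries. Progenitor was the highest population, smooth muscle was second without overlap, and the log2 difference of smooth muscle minus preadipocyte was 2.40 ± 0.25 (SE; edgeR's quasi-likelihood test, adjusted p = 5.81e-07). Anxa3, a calcium-dependent membrane-binding protein, was measured at 164, 167 and 177 CPM in progenitor and 131, 143 and 147 CPM in smooth muscle libraries. Anxa3 was at 56.1, 46.2 and 47.4 CPM in intermediate and 12.9, 14.7 and 8.8 CPM in preadipocyte libraries. Its levels in progenitor and smooth muscle were not called different, and the intermediate libraries lay between these and the preadipocyte libraries. Creb5, a transcription factor of the cAMP response family, was at 153 ± 11.9 in progenitor, 114 ± 3.85 in smooth muscle, 82 ± 2.1 in intermediate and 30.5 ± 3.62 CPM in preadipocyte libraries (SD, n = 3 each). Limch1, an activator of non-muscle myosin, was at 12.4 ± 1.31 in progenitor, 55.4 ± 3.14 in smooth muscle, 6.98 ± 2.62 in intermediate and 4.02 ± 0.656 CPM in preadipocyte libraries, with smooth muscle highest. Other members were called without being ordered. Pi16, a secreted peptidase inhibitor-like protein, was at 839 CPM in progenitor and 101 CPM in intermediate libraries, but at 9.96 CPM in smooth muscle and 12 CPM in preadipocyte libraries, so it was called higher (log2 difference 1.39 ± 0.18, SE) without being ordered. Pdgfra, a receptor of fibroblasts and adipocyte progenitors, was the 1 member called lower, at 524 CPM in progenitor, 303 CPM in intermediate, 105 CPM in preadipocyte and 34.2 CPM in smooth muscle libraries.

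All 12 mesothelial markers were called higher and ordered, with a median log2 difference of 3.35, and 3 were separated. The shares over all genes tested were 19.7% called higher, 6.39% ordered higher and 1.11% separated higher. Mesothelium is the epithelial sheet over serous surfaces such as the pericardium and pleura. The order of this list rested mostly on smooth muscle. Krt19, an epithelial keratin, was measured at 12.3, 11.6 and 13.5 CPM in progenitor and 60, 58.5 and 95 CPM in smooth muscle libraries. Krt19 was at 5.7, 2.03 and 2.82 CPM in intermediate and 1.84, 2.54 and 0.947 CPM in preadipocyte libraries. It was separated, and its log2 difference of progenitor minus smooth muscle was -2.52 ± 0.31 (SE; edgeR's quasi-likelihood test, adjusted p = 6.99e-06). Wt1, a transcription factor of mesothelium and its derivatives, was measured at 15.2, 17.6 and 20.1 CPM in progenitor and 31.7, 32.8 and 45.7 CPM in smooth muscle libraries. Wt1 was at 3.3, 3.68 and 2.73 CPM in intermediate and 13.2, 9.97 and 7.74 CPM in preadipocyte libraries. Rspo1, a secreted amplifier of Wnt signals, was at 20.1 ± 5.49 in progenitor, 66.6 ± 11.1 in smooth muscle, 4.32 ± 1.48 in intermediate and 8.47 ± 3.63 CPM in preadipocyte libraries (SD, n = 3 each). Msln, the mesothelial surface protein mesothelin, was measured at 30.6, 23.7 and 57.9 CPM in progenitor and 291, 286 and 438 CPM in smooth muscle libraries. Msln was at 29, 5.34 and 11.1 CPM in intermediate and 4.53, 13.7 and 0.724 CPM in preadipocyte libraries. Smooth muscle was far above the rest, while the progenitor and intermediate libraries overlapped, and progenitor against intermediate was not called (edgeR's quasi-likelihood test, adjusted p = 0.135). The same held for Upk3b, a uroplakin, at 23.8, 18.7 and 55.9 CPM in progenitor and 23.8, 4.29 and 9.08 CPM in intermediate libraries against 359.5, 392 and 506 CPM in smooth muscle libraries. Progenitor replicate 3, intermediate replicate 1 and preadipocyte replicate 2 held the highest Upk3b of their populations. The log2 difference of progenitor minus smooth muscle was -3.18 for Msln and 0.28 for Dpp4.

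Interferon response genes, which cells switch on after interferon or nucleic acid sensing, were higher on the progenitor and smooth muscle side in 14 of 25 cases and lower in none, with 8 ordered, 5 separated and a median log2 difference of 0.68. With protein-coding genes alone, 1 member of this list and 1 of the IGF list were called lower. In the main test, 19.7% of all genes tested were called higher, 6.39% ordered higher and 1.11% separated higher. Oasl2, an oligoadenylate synthetase-like protein, was measured at 31.4, 15 and 34.6 CPM in progenitor and 34.8, 35.1 and 42.3 CPM in smooth muscle libraries. Oasl2 was at 7.84, 4.89 and 5.72 CPM in intermediate and 3.56, 4.96 and 2.95 CPM in preadipocyte libraries. Progenitor replicate 2 was the lowest library of its side and still above the other side, and the log2 difference was 2.71 ± 0.21 (SE; edgeR's quasi-likelihood test, adjusted p = 1.29e-07). Ifi27l2a, a small interferon-induced membrane protein, was measured at 22.5, 20.8 and 16.9 CPM in progenitor and 7.46, 9.22 and 10.7 CPM in smooth muscle libraries. Ifi27l2a was at 5.08, 3.08 and 3.36 CPM in intermediate and 2.54, 1.51 and 1.67 CPM in preadipocyte libraries. It was highest in progenitor, and its log2 difference was 2.32 ± 0.18 (SE; edgeR's quasi-likelihood test, adjusted p = 1.57e-07). Bst2, the virus-tethering protein tetherin, was measured at 17.1, 12.4 and 19.5 CPM in progenitor and 32.4, 32.8 and 53.5 CPM in smooth muscle libraries. Bst2 was at 10.7, 6.47 and 9.81 CPM in intermediate and 8.75, 9.55 and 9.02 CPM in preadipocyte libraries. It was highest in smooth muscle, and intermediate and preadipocyte were not called different. Oas1a, an oligoadenylate synthetase, was low throughout, at 1.92 ± 0.838 in progenitor, 1.23 ± 0.721 in smooth muscle, 0.276 ± 0.162 in intermediate and 0.338 ± 0.142 CPM in preadipocyte libraries (SD, n = 3 each). Gbp2, an interferon-induced GTPase, was at 46 ± 2.71 in progenitor, 38.9 ± 6.17 in smooth muscle, 20.2 ± 2.62 in intermediate and 25 ± 7.08 CPM in preadipocyte libraries. Isg15, a ubiquitin-like modifier, was ordered but not separated, since smooth muscle against intermediate missed the threshold (edgeR's quasi-likelihood test, adjusted p = 0.151). The summed level of the 25 genes by library size alone was 1180 to 1268 CPM in progenitor, 906 to 1115 CPM in smooth muscle, 650.1 to 768 CPM in intermediate and 902 to 1087 CPM in preadipocyte libraries, so the smooth muscle and preadipocyte sums overlapped. The sum of 19 leukocyte markers was between 34.4 and 81.4 CPM in all 12 libraries, and 1 of the 15 that were tested was called higher.

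**Figure D4:**
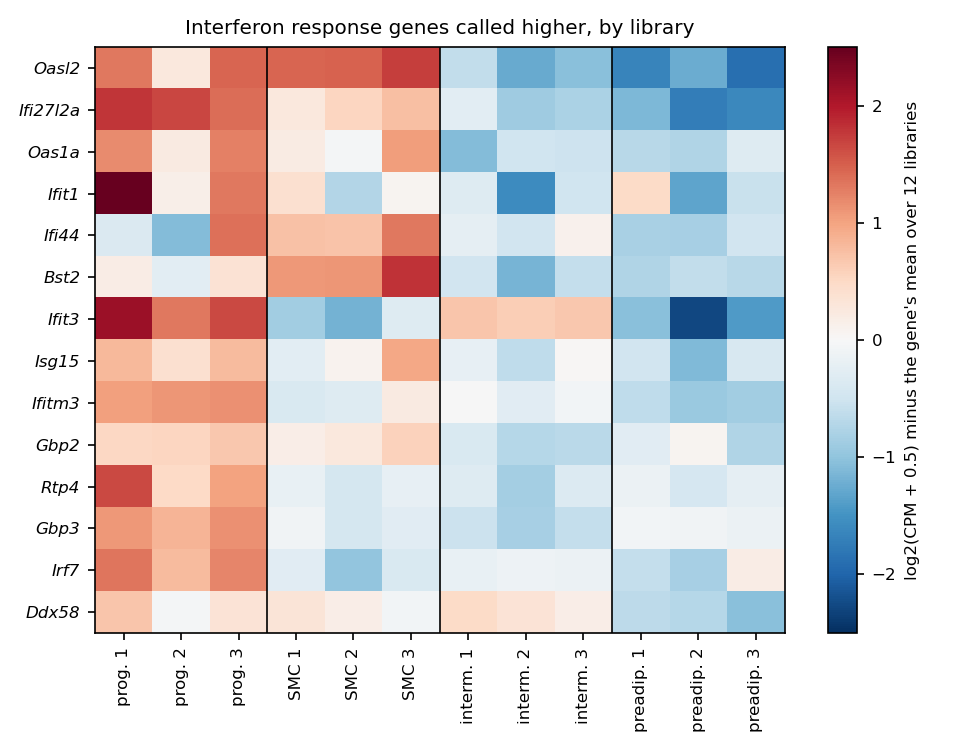
The 14 interferon response genes called higher, of 25 tested, in each library, as log2(CPM + 0.5) minus the mean of the gene over the 12 libraries (red above, blue below). The top rows, Oasl2, Ifi27l2a, Oas1a, Ifit1, Ifi44 and Bst2, are mostly red in progenitor and smooth muscle and blue in the others.

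The promoters of 3 separated interferon genes are shown beside that of Dpp4 because all 4 hold the ISRE letters. The ISRE was chosen for the search after the values were seen, and it was looked for on both strands in the 300 bases from 250 before to 50 after each start. It was found in 9 of the 12 interferon genes called higher that had a promoter in the table (75%), in 2 of the 6 not called (33.33%), and in 3.049% of the 13613 promoters of all genes tested. Among the separated higher genes, 9 of 171 promoters held it (5.263%), and among the separated lower genes 2 of 15 did (13.33%). A match is a description of the letters, and the promoters of Oasl2, Igfbp6, Efemp1, Ptgs1 and Tlr2 held none. The matches overlap each other in Oas1a and Bst2, and capitals mark it on either strand in each sequence, written 5′ to 3′ along the gene (RefSeq, GRCm38.p6; Oas1a chr5:120907476-120907775, minus strand; Bst2 chr8:71537423-71537722, minus strand; Gbp2 chr3:142620413-142620712, plus strand).
Oas1a: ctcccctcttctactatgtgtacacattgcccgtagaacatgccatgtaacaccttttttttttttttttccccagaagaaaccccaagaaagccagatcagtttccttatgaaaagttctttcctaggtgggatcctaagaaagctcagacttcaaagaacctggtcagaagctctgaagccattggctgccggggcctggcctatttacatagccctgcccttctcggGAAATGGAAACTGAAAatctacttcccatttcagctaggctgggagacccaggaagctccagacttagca
Bst2: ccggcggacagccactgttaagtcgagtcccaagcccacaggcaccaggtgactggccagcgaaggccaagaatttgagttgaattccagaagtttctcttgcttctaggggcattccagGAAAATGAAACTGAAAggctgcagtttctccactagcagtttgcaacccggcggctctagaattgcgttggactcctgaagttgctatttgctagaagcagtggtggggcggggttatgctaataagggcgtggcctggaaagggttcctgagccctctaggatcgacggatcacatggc
Gbp2: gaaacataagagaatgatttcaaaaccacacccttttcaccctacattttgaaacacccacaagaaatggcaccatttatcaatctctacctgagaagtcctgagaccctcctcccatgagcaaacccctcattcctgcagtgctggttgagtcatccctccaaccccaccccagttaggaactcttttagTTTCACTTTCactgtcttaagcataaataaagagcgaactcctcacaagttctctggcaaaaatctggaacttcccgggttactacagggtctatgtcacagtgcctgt

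Other innate immune genes were called higher as well. Among all genes tested, 19.7% were called higher, 16.2% lower and 6.39% were ordered higher. Of 18 complement genes, 11 were called higher and 1 lower, and 5 were ordered. C4b, a complement component of the classical pathway, was measured at 213, 198 and 207 CPM in progenitor and 82.7, 80.7 and 85.4 CPM in smooth muscle libraries. C4b was at 26.6, 19.2 and 14.7 CPM in intermediate and 56.8, 61.6 and 39 CPM in preadipocyte libraries. It was separated, with progenitor highest and intermediate lowest. C3, the central complement component, was measured at 376, 384 and 648 CPM in progenitor and 919, 989 and 1155 CPM in smooth muscle libraries. C3 was at 102, 23.4 and 30.6 CPM in intermediate and 362, 426 and 234 CPM in preadipocyte libraries. Smooth muscle was highest for C3, and progenitor and preadipocyte libraries overlapped (edgeR's quasi-likelihood test of progenitor against preadipocyte, adjusted p = 0.356). Of 18 genes of antigen presentation, 8 were called higher and none lower, and Tapbp, which loads peptides on class I molecules, was separated at 177 ± 8.13 in progenitor, 155 ± 17.8 in smooth muscle, 114 ± 4.81 in intermediate and 76.8 ± 11.5 CPM in preadipocyte libraries (SD, n = 3 each). Of 20 NF-kB pathway genes, 16 were called higher and none lower, and 3 were ordered higher. The NF-kB inhibitor Nfkbia, itself a target of the pathway, was the separated member at 756 ± 58.1 in progenitor, 609.8 ± 125 in smooth muscle, 420.4 ± 70.5 in intermediate and 436 ± 81.9 CPM in preadipocyte libraries, and its separation held in 7 of the 21 alternatives.

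In the insulin-like growth factor (IGF) pathway, the binding proteins Igfbp5 and Igfbp6 and the protease Pappa were separated. The binding proteins Igfbp2, Igfbp3 and Igfbp7 were called higher without being ordered. Igfbp4 and the ligands Igf1 and Igf2 were not called. Of 17 IGF genes, 11 were called higher and none lower, 6 were ordered and 4 were separated, with a median log2 difference of 0.78. The shares of all genes tested were 19.7% called higher, 6.39% ordered higher and 1.11% separated higher. Igfbp5, a secreted binding protein of matrix and bone, was measured at 371, 372 and 322 CPM in progenitor and 644, 674 and 795 CPM in smooth muscle libraries. Igfbp5 was at 111, 95 and 80.4 CPM in intermediate and 22.4, 28 and 12.1 CPM in preadipocyte libraries. All 4 populations differed for Igfbp5, in the order smooth muscle, progenitor, intermediate and preadipocyte, and the log2 difference between the sides was 3.49 ± 0.17 (SE; edgeR's quasi-likelihood test, adjusted p = 2.17e-09). Pappa, a metalloproteinase that cleaves IGF binding proteins, was measured at 23.1, 21.7 and 19.3 CPM in progenitor and 23.1, 19.7 and 25.6 CPM in smooth muscle libraries. Pappa was at 12.8, 9.85 and 11.4 CPM in intermediate and 10.4, 11 and 7.46 CPM in preadipocyte libraries. It was not called different within either side, and the fold difference between the sides was 2.11. Igf2bp3, an RNA-binding protein of fetal tissues, was at 23.4 ± 1.9 in progenitor, 20.4 ± 1.47 in smooth muscle, 14.1 ± 1.38 in intermediate and 6.64 ± 1.41 CPM in preadipocyte libraries (SD, n = 3 each). Igf1, the ligand, was not called (edgeR's quasi-likelihood test, adjusted p = 0.579), with 858 CPM in progenitor, 89.8 CPM in smooth muscle, 255 CPM in intermediate and 269 CPM in preadipocyte libraries.

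Several signalling ligands and Wnt or bone morphogenetic protein regulators were also separated. The fibroblast growth factor list as a whole did not lie to one side: 6 of 20 genes were called higher and 5 lower, beside 19.7% and 16.2% of the genes tested, and the median log2 difference was -0.18. Of its members 5 were ordered higher and 2 of these were separated. Of the genes tested, 6.39% were ordered higher, 3.2% ordered lower and 1.11% separated higher. Fgf9, a ligand of mesothelium and mesenchyme, was measured at 5.28, 6.7 and 5.56 CPM in progenitor and 9.32, 9.99 and 10.5 CPM in smooth muscle libraries. Fgf9 was at 3.03, 1.8 and 1.27 CPM in intermediate and 0.378, 1.09 and 0.613 CPM in preadipocyte libraries. Fgf1, an acidic ligand that lacks a signal peptide, was measured at 11.7, 16.6 and 11.1 CPM in progenitor and 25.8, 36.4 and 19.8 CPM in smooth muscle libraries. Fgf1 was at 3.21, 3.61 and 0.999 CPM in intermediate and 1.67, 3.99 and 1.06 CPM in preadipocyte libraries. Both ligands were highest in smooth muscle and their groups did not overlap. Of 35 Wnt pathway genes, 20 were called higher and 4 lower, and 7 were ordered higher and 1 ordered lower. Nkd1, a feedback inhibitor that Wnt signals induce, was measured at 38.3, 53.2 and 47.6 CPM in progenitor and 97.3, 97.5 and 95.5 CPM in smooth muscle libraries. Nkd1 was at 15.9, 18.4 and 15 CPM in intermediate and 13.5, 14.6 and 10.4 CPM in preadipocyte libraries. Its log2 difference was 2.21 ± 0.11 (SE; edgeR's quasi-likelihood test, adjusted p = 3.82e-09), and Rspo1, given above, was the other separated member. Of 35 genes of the TGF-beta and bone morphogenetic protein pathways, 23 were called higher and 2 lower. Of these, 6 were ordered higher and 1 ordered lower, and Bmp7 and the secreted antagonist Grem1 were separated. Grem1 was at 1.88 ± 0.858 in progenitor, 2.92 ± 0.236 in smooth muscle, 0.765 ± 0.112 in intermediate and 0.621 ± 0.137 CPM in preadipocyte libraries (SD, n = 3 each), and it was no longer separated without intermediate replicate 2 or progenitor replicate 1.

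Retinoid and vasoactive genes were among the ordered genes as well. Among all genes tested, 19.7% were called higher, 16.2% lower, 6.39% were ordered higher, 3.2% ordered lower and 1.11% separated higher. Of 17 retinoid genes, 9 were called higher and 2 lower, 3 were ordered higher and 1 ordered lower, and 3 were separated higher. Aldh1a2, which makes retinoic acid, was measured at 3.26, 5.68 and 10.9 CPM in progenitor and 87.2, 79.4 and 87.3 CPM in smooth muscle libraries. Aldh1a2 was at 3.39, 1.65 and 1.54 CPM in intermediate and 0.648, 3.02 and 1.45 CPM in preadipocyte libraries. Smooth muscle was far above progenitor for Aldh1a2, which mesothelium is also known to use, and progenitor replicate 1 was below intermediate replicate 1. Stra6, a receptor for the retinol carrier, was at 2.02 ± 0.539 in progenitor, 3.61 ± 0.228 in smooth muscle, 0.667 ± 0.269 in intermediate and 0.698 ± 0.222 CPM in preadipocyte libraries (SD, n = 3 each). Rarres2, the precursor of the adipokine chemerin, was at 123 ± 2.28 in progenitor, 121 ± 25.1 in smooth muscle, 63 ± 7.21 in intermediate and 45.2 ± 11.1 CPM in preadipocyte libraries. Of 30 vasoactive receptor genes, 16 were called higher and 2 lower, and 8 were ordered. Avpr1a, the vascular vasopressin receptor, was measured at 21.8, 19.5 and 19.8 CPM in progenitor and 13.8, 12.5 and 9.68 CPM in smooth muscle libraries. Avpr1a was at 3.39, 2.18 and 2.54 CPM in intermediate and 3.24, 3.2 and 3.45 CPM in preadipocyte libraries. Agtr1a, the angiotensin II receptor, was measured at 41.1, 39.1 and 44.1 CPM in progenitor and 21.3, 24.7 and 22 CPM in smooth muscle libraries. Agtr1a was at 13.9, 12.9 and 11.2 CPM in intermediate and 6.86, 5.08 and 16.1 CPM in preadipocyte libraries. Both were higher in progenitor than in smooth muscle libraries, and the intermediate and preadipocyte libraries were not called different for either.

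Several other lists had most of their members called higher. Over all genes tested 19.7% were called higher and 6.39% were ordered higher, and 16.2% were called lower and 3.2% ordered lower. Of 23 extracellular proteases and inhibitors, 22 were called higher and 2 were ordered, of 16 elastic fibre genes 15 and 2, of 28 immediate early genes 19 and 2, and of 25 contractile genes 17 and 2. Eln, tropoelastin, was called without being ordered, at 58785 CPM in smooth muscle, 18269.6 CPM in intermediate, 4575 CPM in progenitor and 1589.7 CPM in preadipocyte libraries. Atf3, a stress-induced transcription factor that tissue digestion is known to raise, was the separated immediate early gene, at 1123 ± 4.84 in progenitor, 809 ± 123 in smooth muscle, 473 ± 40 in intermediate and 283 ± 55 CPM in preadipocyte libraries (SD, n = 3 each). Hspb1, a small heat shock protein, was the separated chaperone, at 64.4 ± 3.08 in progenitor, 167 ± 38.6 in smooth muscle, 20.3 ± 3.65 in intermediate and 25.5 ± 6.11 CPM in preadipocyte libraries. Of 26 adhesion genes, 20 were called higher and 1 lower, and 3 were ordered higher and 1 ordered lower. Itgb3, an integrin subunit of the vitronectin receptor, was measured at 93.1, 75.3 and 83.9 CPM in progenitor and 166, 157 and 116 CPM in smooth muscle libraries. Itgb3 was at 48.1, 43.1 and 37.9 CPM in intermediate and 11.3, 9.37 and 7.8 CPM in preadipocyte libraries. Cd9, a tetraspanin, was at 159 ± 2.94 in progenitor, 229 ± 11.4 in smooth muscle, 107 ± 8.79 in intermediate and 34.7 ± 8.23 CPM in preadipocyte libraries. Both were highest in smooth muscle and lowest in preadipocyte libraries. Of 36 axon guidance genes, 22 were called higher and 2 lower, and 4 were ordered higher and 1 ordered lower. Sema3a, a repellent guidance signal, was the separated member, at 49.6 ± 7.79 in progenitor, 22.7 ± 4.72 in smooth muscle, 15.5 ± 0.559 in intermediate and 9.4 ± 0.807 CPM in preadipocyte libraries.

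**Figure D5:**
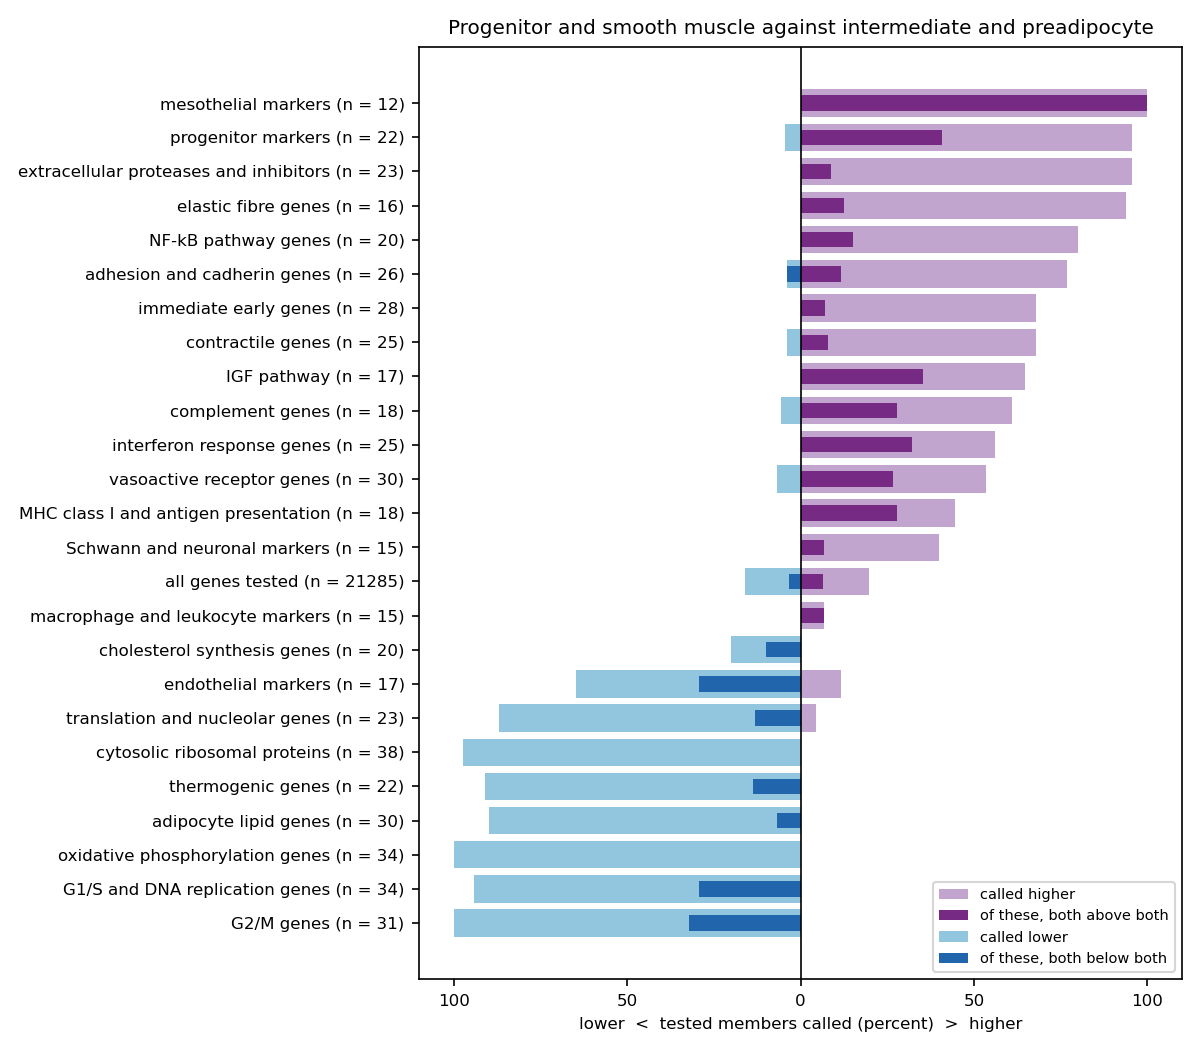
Share of the tested members of each list called higher (right, purple) or lower (left, blue) in progenitor and smooth muscle, in percent, with the darker bars for those also ordered and n for the members tested. All 12 mesothelial markers are called and ordered, whereas all 34 oxidative phosphorylation genes are called lower and none is ordered.

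Fewer genes were separated lower than higher (21 against 237), also with protein-coding genes alone (66 against 193). For ordered genes the balance turned, from 682 lower and 1361 higher to 1189 lower and 876 higher with protein-coding genes alone. Tnmd, tenomodulin, a membrane protein of tendon and adipose tissue, was measured at 8.46, 8.62 and 6.23 CPM in progenitor and 25.3, 16.8 and 22.7 CPM in smooth muscle libraries. Tnmd was at 47.3, 38.9 and 37.2 CPM in intermediate and 83.6, 58.4 and 55.8 CPM in preadipocyte libraries. Its 6 libraries on the lower side lay below the other 6, as the choice of genes required. The log2 difference of Tnmd was -2.01 ± 0.14 (SE; edgeR's quasi-likelihood test, adjusted p = 7.29e-08). Pde3b, a phosphodiesterase through which insulin restrains lipolysis, was measured at 13, 22.4 and 23.4 CPM in progenitor and 30.5, 30.5 and 22.8 CPM in smooth muscle libraries. Pde3b was at 57.4, 59.4 and 48.5 CPM in intermediate and 61.2, 91.6 and 44.1 CPM in preadipocyte libraries. Intermediate and preadipocyte were not called different for Pde3b, and the log2 difference between the sides was -1.36 ± 0.18 (SE; edgeR's quasi-likelihood test, adjusted p = 2.38e-05). Tspan12, a tetraspanin of Norrin signalling whose exons overlap those of Gm30270, was measured at 16.2, 22.7 and 20 CPM in progenitor and 20.7, 25.4 and 17.7 CPM in smooth muscle libraries. Tspan12 was at 41.5, 33.8 and 36.2 CPM in intermediate and 87.1, 95.6 and 56.3 CPM in preadipocyte libraries. Progenitor and smooth muscle were not called different for Tspan12, and preadipocyte was above intermediate.

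The other lower genes had a smaller gap between their closest populations of the 2 sides. Scarb1, a receptor for high-density lipoprotein, was at 43 ± 7.9 in progenitor, 36.4 ± 0.249 in smooth muscle, 66.5 ± 3.55 in intermediate and 169 ± 39.9 CPM in preadipocyte libraries (SD, n = 3 each). Slfn9, a Schlafen family member, was at 34.6 ± 3.65 in progenitor, 35 ± 6.94 in smooth muscle, 54.3 ± 5.89 in intermediate and 81.5 ± 9.2 CPM in preadipocyte libraries. Ank, which exports pyrophosphate and overlaps Mir7117, was at 17.4 ± 0.719 in progenitor, 10.6 ± 1.15 in smooth muscle, 28.8 ± 2.22 in intermediate and 26.6 ± 9.15 CPM in preadipocyte libraries. Cdo1, which oxidises cysteine, was at 37.9 ± 3.72 in progenitor, 27.1 ± 0.710 in smooth muscle, 55.9 ± 4.22 in intermediate and 79.7 ± 20.8 CPM in preadipocyte libraries. For Scarb1, Slfn9 and Cdo1 the preadipocyte libraries were also above the intermediate libraries. Cbx5, a heterochromatin protein, was at 95.2 ± 2.31 in progenitor, 98.4 ± 7.8 in smooth muscle, 149.8 ± 5.34 in intermediate and 155 ± 4.74 CPM in preadipocyte libraries. Cad, the multienzyme that starts pyrimidine synthesis, was at 77.9 ± 6.36 in progenitor, 51.7 ± 3.96 in smooth muscle, 110.2 ± 2.85 in intermediate and 118 ± 14.9 CPM in preadipocyte libraries. Cbx5 was not called different within either side, with a log2 difference between them of -0.66 ± 0.08 (SE; edgeR's quasi-likelihood test, adjusted p = 8.2e-06). Nol10, Cherp, Nap1l1 and Eif4enif1, with roles in the nucleolus, calcium stores, nucleosome assembly and translation, had log2 differences of -0.62, -0.40, -0.99 and -0.61. Over the 21 alternatives, separation held in 20 for Pde3b, Tnmd, Tspan12 and Cbx5, in 16 for Slfn9, 15 for Scarb1 and Cad, 14 for Cdo1, 13 for Ank, 11 for Nap1l1 and Eif4enif1, 8 for Cherp and 6 for Nol10. The count of separated lower genes was 9 without progenitor replicate 3, 10 without progenitor replicate 1, 11 without intermediate replicate 1 and 45 without preadipocyte replicate 3.

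Cell division genes were called lower on the progenitor and smooth muscle side, and they were highest in the preadipocyte libraries. By library size alone, their summed levels in intermediate libraries lay below those in smooth muscle libraries. Of 31 G2/M genes all 31 were called lower, with a median log2 difference of -0.92, and of 34 genes of G1/S and DNA replication 32 were called lower, with a median of -0.95. In each of these lists 10 genes were ordered and none was separated. Of all genes tested, 16.2% were called lower and 3.2% ordered lower. Ccnb1, the mitotic cyclin B, was measured at 58.4, 69.3 and 55.3 CPM in progenitor and 69, 69 and 63.9 CPM in smooth muscle libraries. Ccnb1 was at 82.7, 63.7 and 62 CPM in intermediate and 228, 339 and 398 CPM in preadipocyte libraries. The progenitor, smooth muscle and intermediate libraries overlapped, and smooth muscle against intermediate was not called (edgeR's quasi-likelihood test, adjusted p = 0.878). Birc5, the mitotic protein survivin, was at 39.1 ± 7.53 in progenitor, 32.4 ± 5.27 in smooth muscle, 39.1 ± 3.7 in intermediate and 211 ± 31.3 CPM in preadipocyte libraries (SD, n = 3 each). Mcm2, a subunit of the replicative helicase, was at 56.2 ± 6.89 in progenitor, 61.5 ± 3.96 in smooth muscle, 63.9 ± 8.27 in intermediate and 232 ± 117 CPM in preadipocyte libraries. Mki67, the proliferation antigen, was at 48.7 ± 5.83 in progenitor, 112 ± 11.3 in smooth muscle, 90.8 ± 7.9 in intermediate and 265 ± 115 CPM in preadipocyte libraries and was not ordered, since the smooth muscle mean lay above the intermediate mean. The order depended on the scaling: with library size alone 31 and 32 genes were called lower, but no G2/M gene and 1 G1/S gene was ordered. The summed G2/M level by library size alone was 771 to 933 CPM in progenitor, 1091 to 1273 CPM in intermediate, 1604 to 1940 CPM in smooth muscle and 3757 to 5882 CPM in preadipocyte libraries. The G1/S sum was 1181 to 1300 CPM in intermediate, 1258 to 1418 CPM in progenitor and 1611 to 1698 CPM in smooth muscle libraries. In preadipocyte libraries the G1/S sum was 4432 to 8557 CPM. The promoter of Ccnb1 is shown for its CCAAT boxes, which many genes of mitosis carry (chr13:100786437-100786736, minus strand; RefSeq, GRCm38.p6; capitals mark CCAAT).
Ccnb1: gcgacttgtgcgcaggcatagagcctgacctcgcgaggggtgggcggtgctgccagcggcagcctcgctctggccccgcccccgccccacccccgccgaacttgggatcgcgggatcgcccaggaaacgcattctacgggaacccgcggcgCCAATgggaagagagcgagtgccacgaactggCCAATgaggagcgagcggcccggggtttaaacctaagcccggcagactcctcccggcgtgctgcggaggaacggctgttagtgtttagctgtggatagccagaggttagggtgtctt
CCAAT, read on both strands, was found in 72.22% of the 54 cell division promoters and in 38.11% of the promoters of all genes tested. TTTGAA, the core of the cell cycle homology region, was found in 44.44% and 13.14%. The promoter of Birc5 held no CCAAT on either strand.

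Lipid, thermogenic and nuclear oxidative phosphorylation genes were called lower in nearly all cases, against 16.2% of the genes tested, and 3.2% of the genes tested were ordered lower. Of 30 adipocyte lipid genes, 27 were called lower and 2 ordered, of 22 thermogenic genes 20 and 3, of 34 oxidative phosphorylation genes 34 and none, and of 38 cytosolic ribosomal protein genes 37 and none. Of 13 mitochondrially encoded genes, 9 were called lower and none was ordered. Genes of the mitochondrial genome held 0.64 to 0.75% of all counts in intermediate and 0.84 to 0.91% in progenitor libraries. Their share was 1.18 to 1.38% in smooth muscle and 2.56 to 3.43% in preadipocyte libraries. Esrrg, an orphan nuclear receptor of oxidative metabolism, was the 1 separated member of these lists, measured at 4.35, 3.42 and 1.94 CPM in progenitor and 2.01, 2.16 and 2.33 CPM in smooth muscle libraries. Esrrg was at 6.06, 7.22 and 6.27 CPM in intermediate and 20.8, 24.3 and 15.2 CPM in preadipocyte libraries. Its 6 libraries lay below the other 6, and the log2 difference was -2.11 ± 0.19 (SE; edgeR's quasi-likelihood test, adjusted p = 6.55e-07). Without intermediate replicate 2, progenitor replicate 2 or progenitor replicate 3 it was no longer separated. Dio2, which activates thyroid hormone, was measured at 3.8, 5.54 and 3.48 CPM in progenitor and 2.65, 3.18 and 1.63 CPM in smooth muscle libraries. Dio2 was at 36.5, 34.7 and 35.7 CPM in intermediate and 4.7, 5.26 and 3.18 CPM in preadipocyte libraries. It was highest in intermediate libraries and ordered, but progenitor against preadipocyte was not called (edgeR's quasi-likelihood test, adjusted p = 0.933). The uncoupling protein gene Ucp1, at 119 ± 36.3 CPM in preadipocyte libraries, was at 5.36 ± 1.52 CPM in progenitor, 3.09 ± 1.42 CPM in intermediate and 1.26 ± 0.278 CPM in smooth muscle libraries, and since the progenitor mean was above the intermediate mean it was not ordered. Pparg was likewise higher in progenitor than in intermediate libraries, at 54.9 ± 3.32 and 8.23 ± 0.999 CPM, beside 295 ± 95.3 CPM in preadipocyte and 3.72 ± 1.13 CPM in smooth muscle libraries.

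Among 17 endothelial markers, 11 were called lower, 2 were called higher and 5 were ordered lower. The shares over all genes tested were 16.2% called lower, 19.7% called higher and 3.2% ordered lower. Pecam1, an endothelial junction protein, was measured at 10, 12.2 and 10.4 CPM in progenitor and 15.6, 25.6 and 18.5 CPM in smooth muscle libraries. Pecam1 was at 26.9, 22.3 and 15.9 CPM in intermediate and 31.7, 35.4 and 18.7 CPM in preadipocyte libraries. Smooth muscle and intermediate overlapped for Pecam1, and with library size alone no endothelial marker was ordered. Cdh5, the endothelial cadherin, was at 0.671 ± 0.467 in progenitor, 3.3 ± 0.860 in smooth muscle, 4.59 ± 2.17 in intermediate and 4.33 ± 4.03 CPM in preadipocyte libraries (SD, n = 3 each). The summed endothelial level by library size alone was 127 to 420 CPM over the 12 libraries, highest in smooth muscle replicate 2.

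The markers of the smooth muscle label did not follow the pairing. Myh11, the smooth muscle myosin heavy chain, was at 2.1 ± 0.386 in progenitor, 1132 ± 209 in smooth muscle, 112 ± 35.2 in intermediate and 16.8 ± 2.66 CPM in preadipocyte libraries (SD, n = 3 each), and it was not called between the sides (edgeR's quasi-likelihood test, adjusted p = 0.476). Acta2, smooth muscle actin, was called higher at 32.9 ± 7.75 in progenitor, 5335 ± 199 in smooth muscle, 669 ± 120.4 in intermediate and 107 ± 32.9 CPM in preadipocyte libraries, with progenitor the lowest population. At the edge of the ordering rule, the order rested on very small gaps. Among the genes just inside, Dcun1d2 was at 23.6 ± 0.838 in progenitor, 17.9 ± 0.672 in smooth muscle, 23.7 ± 1.4 in intermediate and 29.8 ± 3.82 CPM in preadipocyte libraries, Gpaa1 at 57.1 ± 3.77 in progenitor, 49.3 ± 4.57 in smooth muscle, 57.1 ± 1.93 in intermediate and 91.8 ± 22.6 CPM in preadipocyte libraries and Rrn3 at 50 ± 2.1 in progenitor, 48.4 ± 0.495 in smooth muscle, 50.1 ± 4.46 in intermediate and 97.3 ± 29.9 CPM in preadipocyte libraries. Among those just outside, Dcaf6 was at 53.8 ± 5.77 in progenitor, 42.6 ± 2.35 in smooth muscle, 42.8 ± 5.36 in intermediate and 25.1 ± 2.17 CPM in preadipocyte libraries, Cul4b at 32.2 ± 3.7 in progenitor, 27.8 ± 3.53 in smooth muscle, 32 ± 2.14 in intermediate and 52.8 ± 9.46 CPM in preadipocyte libraries and Lancl1 at 55 ± 4.46 in progenitor, 54.1 ± 6.35 in smooth muscle, 36.6 ± 1.36 in intermediate and 54.6 ± 10.9 CPM in preadipocyte libraries.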

How the data were processed

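Per the labels' protocols, libraries were made from poly(A)-selected RNA of each sorted population using SMART-Seq v4 chemistry for low input. The submitters' processing notes name STAR 2.5.2a, DESeq2 1.26.0 and mm10. The program, annotation and strand setting that produced the counts are not given in these sources. The authors deposited whole-number counts per gene and library without scaling, and these counts were used; their normalized tables were not used here. No gate, animal number or cell number per library is given.

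Counts were scaled with TMM, filtered with filterByExpr (21285 of 36512 genes kept) and fitted with edgeR 4.0.16 (quasi-likelihood, 1 coefficient per population, R 4.3.3). The contrast was the mean of progenitor and smooth muscle minus the mean of intermediate and preadipocyte on the log2 scale, two-sided, with Benjamini-Hochberg adjustment over all genes tested and a threshold of 0.05, and the 4 single comparisons came from the same fit. Values in text are CPM after TMM unless library size alone is named, with SD over 3 libraries. Libraries held 11701825 to 17123109 counts, so genes near 1 CPM rest on few counts. CPM are not divided by gene length, so levels of different genes are not compared. On data simulated for this contrast over 19612 genes, calls recovered 74 of 100 simulated 2-fold changes and 100 of 100 simulated 4-fold changes (42 and 87 separated), and 12 of 186 calls were false.

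The genes named are, for each direction, up to 15 separated genes with mean log2 CPM of at least 4, all 6 libraries of a side apart and the largest smallest gap (13 qualified among the lower genes), up to 4 members of each list and the population labels. C3, Cdh5, Creb5, Eln, Igf1, Isg15, Limch1, Mcm2, Mki67, Msln, Oas1a, Pecam1 and Upk3b were named after their values were seen. The grouping, the 54 gene lists (1105 distinct genes tested) and the motifs were chosen with earlier results of these data known. Promoters are RefSeq's (GRCm38.p6); 13613 of the tested genes had one, matched by symbol or ID. Exon overlaps and coordinates are from GENCODE on GRCm38. Alternatives changed the scaling (DESeq2-type size factors, library size alone), the tool (DESeq2 1.42.0, limma-voom 3.58.1), the filter, the replicate block and the libraries, left out in turn. Subtracting an even background and testing protein-coding genes alone were added after the data were seen.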

Additional observations from a re-analysis of the deposited data

How the results depend on the processing

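The counts of genes called higher and lower and of list members called stayed within 1.5 times of the reported counts under the 21 alternatives. The genes ordered, higher, and genes ordered, lower, moved as follows. Library size alone moved the ordered lower genes to 197, the separated higher genes to 368 and the separated lower genes to 10; it moved the median log2 difference of smooth muscle against intermediate from 0.10 to 0.58 and of progenitor against preadipocyte from -0.04 to -0.43, so orders between the sides depend on the scaling. Limma-voom gave 45 separated lower genes. A filter of at least 5 CPM in 3 libraries gave 787 ordered higher and 40 separated lower genes. Protein-coding genes alone gave 876 ordered higher and 1189 ordered lower genes, which turns the balance between them, and 66 separated lower genes. Requiring 2-fold in each comparison left 119 separated higher and 2 separated lower genes. Leaving out each library in turn gave 3127 to 4561 genes higher, 2971 to 3909 lower, 1115 to 1460 ordered higher, 489 to 788 ordered lower, 164 to 273 separated higher and 9 to 45 separated lower genes, and 342 to 413 list members higher and 312 to 366 lower. The replicate block gave 4130 genes higher and 3331 lower, 1341 and 658 ordered, and 227 and 22 separated. With the even background subtracted, 4084 genes were called higher and 3348 lower. In that alternative 211 separated higher and 18 separated lower genes were shared with the main test. The replicate numbers showed no clear pairing of the libraries: 6 of 18 same-numbered pairs had correlated deviations over 0.1 (range -0.16 to 0.21), and 4 of 12 libraries correlated best with their own number. With 3 libraries per population, these values cannot decide whether the libraries were paired. Of the 231 named genes, 11 lost their call in at least 1 alternative, in 80 of the gene-by-setting values, and 4763 values kept direction and side of the threshold. Myh11, not called, turned to a log2 difference of -0.030 without intermediate replicate 3 and ranged up to 0.24. Separation held in 20 of 21 alternatives for Wt1 and Atf3, 19 for Bst2 and Aldh1a2, 18 for Esrrg, 18 of the 20 that tested it for Grem1, 16 for C4b, 15 for Gbp2 and Tapbp, 14 for Sema3a, 13 for Igf2bp3 and 10 for Agtr1a. The causes were not tested.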

Other observations

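Further separated genes outside the naming rule are given here, chosen after their values were seen. Pdpn, podoplanin, a surface glycoprotein of mesothelium, lymphatic vessels and fibroblasts, was measured at 23.6, 24.5 and 24.2 CPM in progenitor and 24.6, 21.7 and 35.2 CPM in smooth muscle libraries. Pdpn was at 5.61, 5.26 and 6.81 CPM in intermediate and 5.51, 3.08 and 3.62 CPM in preadipocyte libraries. Kitl, the stem cell factor that binds Kit, was measured at 44.1, 45.5 and 49.5 CPM in progenitor and 23.5, 32.5 and 27.1 CPM in smooth muscle libraries. Kitl was at 12.5, 14.6 and 10.7 CPM in intermediate and 15.1, 12.6 and 10.4 CPM in preadipocyte libraries. For Pdpn and Kitl the 6 progenitor and smooth muscle libraries were above the other 6, and intermediate and preadipocyte were not called different. Efhd1, a calcium-binding mitochondrial protein whose exons overlap Efhd1os, was at 21.8 ± 1.53 in progenitor, 28.5 ± 4.16 in smooth muscle, 1.34 ± 0.213 in intermediate and 1.57 ± 0.205 CPM in preadipocyte libraries (SD, n = 3 each).

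The epithelial junction genes Cldn3, a claudin, and Gjb5, a connexin, were separated at unlike ratios between progenitor and smooth muscle. Cldn3, whose exons overlap Wbscr25, was at 3.82 ± 0.446 in progenitor, 21.2 ± 2.99 in smooth muscle, 0.803 ± 0.491 in intermediate and 0.693 ± 0.402 CPM in preadipocyte libraries (SD, n = 3 each). Gjb5 was at 6.27 ± 0.671 in progenitor, 8.61 ± 1.24 in smooth muscle, 0.275 ± 0.0973 in intermediate and 0.459 ± 0.317 CPM in preadipocyte libraries. The log2 difference of progenitor minus smooth muscle was -2.47 ± 0.30 for Cldn3 and -0.46 ± 0.30 for Gjb5 (SE). Il18, an inflammasome cytokine, was at 3.12 ± 0.348 in progenitor, 13.3 ± 2.82 in smooth muscle, 1.13 ± 0.482 in intermediate and 1.03 ± 0.402 CPM in preadipocyte libraries. Sp100, a nuclear body protein that interferon induces and whose exons overlap n-R5s215, was at 14 ± 3.7 in progenitor, 9.35 ± 1.02 in smooth muscle, 1.18 ± 0.133 in intermediate and 2.22 ± 0.330 CPM in preadipocyte libraries, and Ddx60, an interferon-induced helicase, was at 4.81 ± 0.925 in progenitor, 5.46 ± 0.898 in smooth muscle, 2.18 ± 0.728 in intermediate and 1.47 ± 0.142 CPM in preadipocyte libraries. Both were higher in all 6 progenitor and smooth muscle libraries than in the other 6.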
